A study of Homo sapiens with 6 samples.

Results

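NF-kB is a family of dimeric transcription factors, and the transcripts of its subunits, of the inhibitors that hold it in the cytoplasm and of TNFAIP3 and TRAF1, which act on its upstream signalling, were followed here through dinaciclib treatment of MDA-MB-231 cells. The members were fixed as a list of 10 genes (NFKB1, NFKB2, RELA, RELB, REL, NFKBIA, NFKBIB, NFKBIE, TNFAIP3 and TRAF1), and every probe set that the platform annotation gives to one of them alone was taken. That rule found 16 probe sets of the 22215 tested, and each of the 10 genes had at least 1. A probe set is a group of short oligonucleotides on the array that together report 1 transcript or several forms of it. Of the 10 genes, 5 had more than 1 probe set: NFKB2 had 3, and RELA, REL, NFKBIB and TNFAIP3 had 2 each. No probe set was removed for low signal, so all 16 were tested.

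MDA-MB-231 is a triple-negative breast cancer line, known for NF-kB activity without added stimulus, and dinaciclib is a small-molecule inhibitor of several cyclin-dependent kinases, among them CDK9, which releases RNA polymerase II into elongation. Baseline comprised 3 arrays of cells at 0 h (replicates E, 4 and 5), and the dinaciclib group comprised 3 arrays of cells kept for 12 h with the drug in their RPMI growth medium (replicates F, 4 and 5). The labels give the drug's solvent as DMSO but no dose, name no genetic change in either group and include no 12 h sample without drug, so drug, solvent and time in culture cannot be told apart. No source used here says whether arrays came from separate cultures, and p-values therefore measure only the spread between these arrays, which may be technical.

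In resting cells NF-kB dimers are held in the cytoplasm by IkB proteins, which NFKBIA, NFKBIB and NFKBIE encode. Signals from cytokine and pattern receptors pass through ubiquitin-bound adaptors to the IkB kinases, the IkB protein is phosphorylated and degraded, and the dimer enters the nucleus. NFKB1 and NFKB2 encode precursors that are trimmed to the DNA-binding subunits p50 and p52, while RELA, RELB and REL encode subunits with a transactivation domain. The genes for NFKBIA, NFKBIE, TNFAIP3, TRAF1, NFKB1, NFKB2, RELB and REL are textbook targets of the factor itself, which closes feedback loops.

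The DNA element that NF-kB dimers bind, the kappa B consensus, is shown for the members that hold a match close to their start, because it is the DNA through which the factor acts on its target genes. RefSeq promoter windows of assembly GRCh38.p14, 300 bases each, were at hand for 8 of the 10 members, RELB and NFKBIE being the others. A match on either strand was found in 4 of the 8 windows, against 10.8% of 27305 windows of the same length. Capitals mark the bases of a match, and each stretch is written along the gene's strand.

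NFKB1, chr4:102501285-102501344, plus strand: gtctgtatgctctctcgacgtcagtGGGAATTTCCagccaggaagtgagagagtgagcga
REL, chr2:60881502-60881562, plus strand: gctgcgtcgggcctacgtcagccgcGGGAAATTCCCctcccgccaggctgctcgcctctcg
NFKBIA, chr14:35404796-35404855, minus strand: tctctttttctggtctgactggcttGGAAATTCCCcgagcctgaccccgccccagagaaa
TNFAIP3, chr6:137867167-137867238, plus strand: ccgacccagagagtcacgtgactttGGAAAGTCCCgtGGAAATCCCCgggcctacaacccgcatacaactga

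In NFKB1 the match lay 49 to 40 bases upstream of the annotated start. In NFKBIA it lay 81 to 72 bases upstream, on the opposite strand. The REL stretch holds overlapping matches, 1 on each strand, between 47 and 37 bases upstream, which is why 11 bases are in capitals. TNFAIP3 was the member with 2 separate matches, at 67 to 58 and at 55 to 46 bases upstream, both on the opposite strand. The windows of NFKB2, RELA, NFKBIB and TRAF1 held no match, which says only that these letters are not in those 300 bases. Shorter stretches of it do not separate windows, since GGGA was in 95.9% and TTCC in 95.5% of all of them on either strand. Of the 4 genes with a match, NFKB1 and TNFAIP3 rose after dinaciclib, and NFKBIA and REL did not pass the test. Of the genes without a match, RELA, NFKBIB and TRAF1 did not pass, and NFKB2 rose on 1 very dim probe set only. NFKBIE, which fell, had no window. A link between match and change was not tested.

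Intensities differed between arrays as a whole. The median intensity was 53.3 to 66.2 in the baseline arrays and 40.6 to 46.8 in the dinaciclib arrays, and the median probe set had a log2 change of -0.21 as deposited. Quantile normalization moved that median to 0.03, median centring to 0.24 and centring on spiked controls to -0.29. As deposited 857 probe sets were raised and 2971 lowered, while median centring gave 3487 raised and 1938 lowered, and quantile normalization 2130 and 2338. Arrays E and F stood apart from the numbered arrays, with 736 and 1155 on the 5-prime control for 18S ribosomal RNA against 8273 to 9061 on the others. The ratio of 3-prime to 5-prime signal, a sign of RNA or labelling quality, was 4.27 and 3.64 for ACTB in E and F and 5.87 to 6.67 in the numbered arrays, and for GAPDH 1.18 to 1.24 at baseline and 1.15 to 1.19 after dinaciclib. The labelled cell line was checked on its markers: VIM, CD44, CAV1 and AXL lay above the 97th percentile of mean intensity, and ESR1, PGR and CDH1 at the 38.1, 5.22 and 16.3 percentile, while KRT19, a luminal keratin, lay at the 92.2 percentile. EGFR and FN1 lay at the 77.7 and 91.9 percentile, and the luminal genes GATA3, EPCAM and FOXA1 at the 74.5, 68.8 and 24.6 percentile. The leukocyte genes PTPRC, CD3E and CD14 lay between the 23.6 and 38.6 percentile, and the endothelial and stromal genes PECAM1, VWF, COL1A1, COL1A2 and DCN between the 10.2 and 47.6 percentile. In each of these 4 marker lists 1 gene fell and 0 rose after dinaciclib (limma, adjusted p under 0.05). The lists had 6, 7, 3 and 5 measured genes, and over all genes 15.8% fell and 3.32% rose. At an unadjusted p under 0.05, 0 of these markers rose too (limma), beside 6.85% of all genes. EGFR had a log2 change of -2.41, KRT19 of -1.32, CD14 of -3.03 and PECAM1 of -1.57. CD14 read 1.46, 3.03 and 1.70 in dinaciclib F, 4 and 5, near the floor of the array, so the size of its change is uncertain. The part of these markers in the results was not tested.

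After 12 h of dinaciclib the transcripts of the family moved in both directions. NFKB1 and TNFAIP3 transcripts were about 3-fold higher or more on every probe set they have, the NFKBIE transcript was 2.51-fold lower, and the remaining members did not pass the test as deposited, except for 1 very dim NFKB2 probe set. Of the 16 member probe sets 4 rose (25%), 1 fell (6.25%) while 11 missed the threshold of 0.05. Every adjusted p comes from limma with Benjamini-Hochberg adjustment, over all 22215 probe sets unless dim ones were left out or 1 value per gene was used. Those fits adjusted over 13329 and 15114. A missed threshold does not show that a transcript was unchanged. Over all probe sets 3.86% rose and 13.4% fell under the same rule. Baseline and treated arrays did not overlap in 10 of the 16 member probe sets (62.5%), against 36.6% of all probe sets. The median log2 change of the 16 was -0.05, beside -0.21 for all probe sets. On the brightest probe set of each gene, the one with the highest mean over the 6 arrays, 2 members rose, 1 fell and 7 missed the threshold. Over all genes 3.32% rose and 15.8% fell on that probe set. The median was -0.33 for the members beside -0.26 for all genes. At an adjusted p under 0.05 the member split of 4 rises to 1 fall was the same under all 4 scalings, unlike the split over all probe sets. At an unadjusted p under 0.05 (limma) the member split moved with the scaling. It was 4 rises and 5 falls as deposited and with spiked controls, 6 and 2 with quantile normalization, and 7 and 1 with median centring. With any 1 array other than dinaciclib F left out, 2 member probe sets rose, and 4 did without F. Over all 22215 probe sets, 362 to 629 rose with 1 array left out and 619 without F, against 857 with no array left out.

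**Figure D1:**
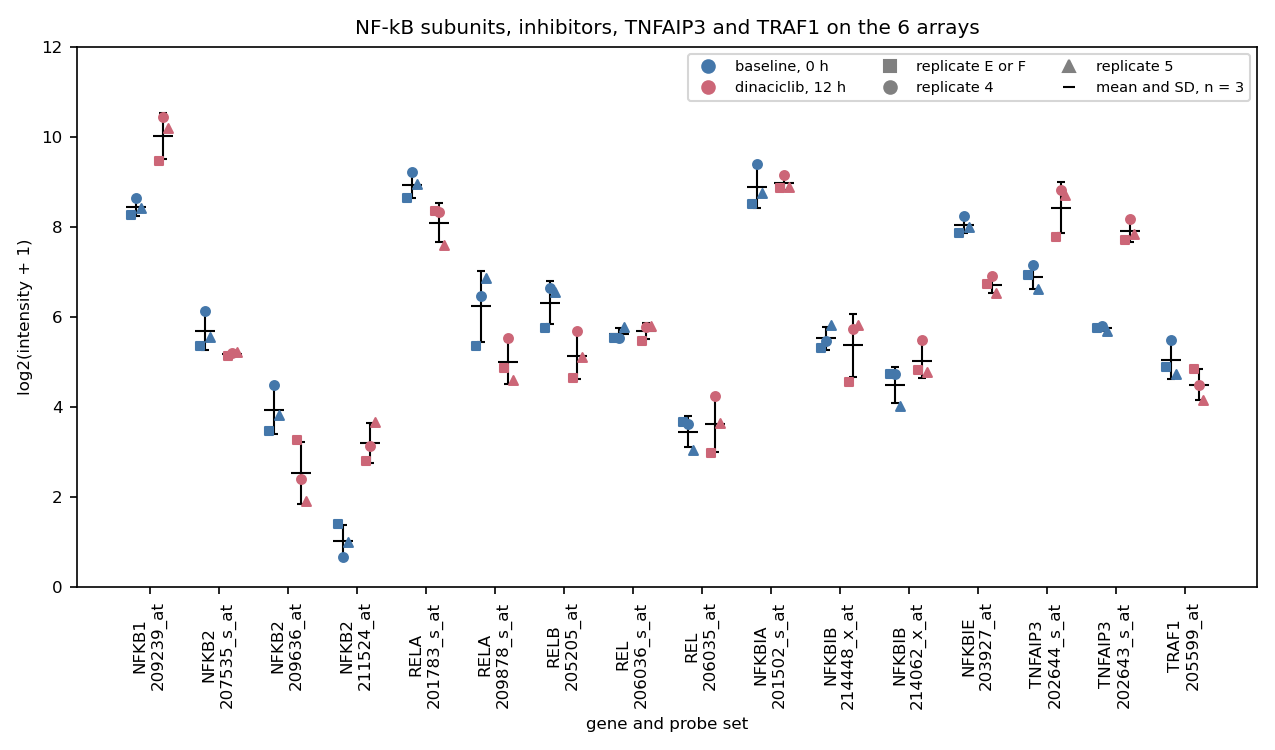
Each point is the log2(intensity + 1) of 1 array for 1 of the 16 probe sets on the horizontal axis, in blue for baseline (0 h) and red for dinaciclib (12 h), with the shape giving the replicate name and the bars the mean and SD of 3 arrays. The groups lie apart in 10 probe sets: red is above blue for NFKB1, both TNFAIP3 probe sets, NFKB2 211524_at and NFKBIB 214062_x_at, and below it for NFKBIE, RELB, RELA 201783_s_at and NFKB2 207535_s_at and 209636_at.

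NFKB1, the gene of the p105 precursor and the p50 subunit, was measured by 1 bright probe set, 209239_at, at the 82.4 percentile of mean intensity. Its intensities were 305, 398 and 344 in baseline E, 4 and 5 and 701, 1384 and 1169 in dinaciclib F, 4 and 5. Every treated array read higher than every baseline array, and the treated array F was the lowest of its group. The mean rose from 8.44 ± 0.19 to 10.03 ± 0.51 on the log2 scale (SD, n = 3 per group), a 3.0-fold rise, which is a log2 change of 1.59 (standard error, SE, 0.30; 95% interval 0.86 to 2.31) (adjusted p = 0.0178, limma). The change between same-named arrays was 1.80 for number 4 and 1.76 for number 5, and 1.20 from E to F. Within the numbered arrays alone the change was 1.78 and still passed (adjusted p = 0.0372, limma). With 1 array fewer the size held, at 1.38 to 1.87, but the test was missed without baseline E, 4 or 5 or dinaciclib 4 or 5, with adjusted p between 0.0508 and 0.0636.

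NFKB2, which encodes p100 and p52 and belongs to the alternative branch of the pathway, gave 3 probe sets with changes in both directions. On the brightest, 207535_s_at, the intensities were 39.6, 69.0 and 46.3 at baseline and 34.0, 35.8 and 36.1 after dinaciclib. All 3 treated arrays were lower than all baseline arrays, by a log2 change of -0.50 (SE 0.25, 95% interval -1.11 to 0.11), and the test was not passed (adjusted p = 0.246, limma). Under quantile normalization that change was -0.09 and under median centring -0.05. On 209636_at, dim at 10.1, 21.5 and 13.1 at baseline and 8.66, 4.29 and 2.74 after dinaciclib, the groups again did not overlap, with a log2 change of -1.40 (SE 0.43, adjusted p = 0.0759 in limma). That change passed without dinaciclib F, at -1.77 (adjusted p = 0.0406, limma).

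The third NFKB2 probe set, 211524_at, went the other way at the floor of the array. It read 1.63, 0.575 and 0.997 at baseline and 5.92, 7.73 and 11.7 after dinaciclib, at the 11.4 percentile of mean intensity. The log2(value + 1) change of 2.18 (SE 0.31) passed (adjusted p = 0.00802, limma), also with each array left out in turn. Adding 16 in place of 1 before the logarithm reduced it to 0.51 (adjusted p = 0.0360, limma). The mean of the 3 NFKB2 probe sets had a log2 change of 0.09, so no direction is given for the gene.

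RELA encodes p65, the main transactivating subunit of the classical pathway. Its brightest probe set, 201783_s_at, read 397, 593 and 497 at baseline and 326, 323 and 192 after dinaciclib. The groups did not overlap, and the lowest array was dinaciclib 5. The log2 change was -0.84 (SE 0.29, 95% interval -1.55 to -0.13), and it missed the threshold as deposited (adjusted p = 0.107, limma). The second probe set, 209878_s_at, read 40.1, 87.8 and 116 at baseline and 28.1, 45.1 and 23.2 after dinaciclib, with overlapping groups and a log2 change of -1.24 (SE 0.45, adjusted p = 0.121 in limma). Both changes were negative under every scaling, by 0.39 to 0.93 for the first and by 0.79 to 1.33 for the second. Both passed when dim probe sets were left out, with adjusted p of 0.0245 and 0.0237, and with a variance trend and robust estimation, with 0.0227 and 0.0333 (limma). The first also passed with 16 added in place of 1, at -0.81 (adjusted p = 0.0430, limma), and the second without baseline E, at -1.68 (adjusted p = 0.0387, limma).

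RELB, the partner of p52 in the alternative pathway, was read by 205205_at. It measured 53.2, 98.2 and 93.1 at baseline and 23.8, 50.6 and 33.3 after dinaciclib. Each treated array lay below each baseline array, and within both groups the letter array was the lowest. The log2 change was -1.18 (SE 0.37, 95% interval -2.07 to -0.28) (adjusted p = 0.0803, limma). With letter or number of the replicate name as a batch term the change passed (adjusted p = 0.0222, limma), and within the numbered arrays alone it was -1.20 and did not pass (adjusted p = 0.0809, limma). It also passed without dim probe sets (adjusted p = 0.0129), with a variance trend and robust estimation (0.0211) and with 16 added in place of 1 (0.0359, limma).

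REL, the c-Rel subunit known mostly from lymphocytes, gave no change beyond the spread on either probe set. On 206036_s_at the arrays read 45.1, 45.3 and 53.7 at baseline and 43.5, 54.0 and 54.4 after dinaciclib, with overlapping groups. The log2 change was 0.07 with a 95% interval of -0.41 to 0.55, so a rise of 2-fold lay outside the interval as deposited. The dim probe set 206035_at read 11.7, 11.3 and 7.25 at baseline and 6.91, 17.8 and 11.4 after dinaciclib, with a change of 0.17 and a wider interval of -0.72 to 1.06. For 206036_s_at the sign turned to -0.01 with centring on spiked controls, and quantile normalization gave 0.52.

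NFKBIA encodes IkB alpha, the inhibitor that NF-kB itself rapidly resynthesizes. Its 1 probe set, 201502_s_at, was bright, with 362, 672 and 432 at baseline and 469, 568 and 473 after dinaciclib. The groups overlapped, and both the lowest and the highest array of the 6 were baseline arrays. The log2 change was 0.09 (SE 0.28, 95% interval -0.59 to 0.76) (adjusted p = 0.877, limma). It stood at 0.38 under quantile normalization and at 0.54 under median centring, did not pass in either, and was -0.05 within the numbered arrays.

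NFKBIE, the gene of IkB epsilon, was read by 203927_at at 234, 301 and 256 at baseline and at 105, 118 and 90.9 after dinaciclib. Every treated array read far below every baseline array. The mean fell from 8.04 ± 0.18 to 6.71 ± 0.19 on the log2 scale (SD, n = 3 per group), a 2.51-fold fall, or -1.32 in log2 units (SE 0.21, 95% interval -1.83 to -0.82) (adjusted p = 0.0103, limma). NFKBIE passed whichever 1 array was left out and under every scaling, where the change was -0.86 with quantile normalization, -0.87 with median centring and -1.41 with spiked controls. Within the 4 numbered arrays the change was -1.41 and the test was narrowly missed (adjusted p = 0.0506, limma).

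NFKBIB, the gene of IkB beta, was read by 2 probe sets of the kind whose name ends in _x_at, which the manufacturer marks as able to bind other transcripts, so their values are uncertain. On 214448_x_at the arrays read 38.8, 43.1 and 55.2 at baseline and 22.5, 52.0 and 55.4 after dinaciclib, with a log2 change of -0.16 and a 95% interval of -1.09 to 0.76. The low value was that of dinaciclib F, and without that array the change was 0.24. On 214062_x_at they read 25.4, 25.4 and 15.3 at baseline and 27.4, 43.6 and 26.5 after dinaciclib, and the groups did not overlap, with a change of 0.54 and an interval of -0.20 to 1.28. Neither passed (adjusted p = 0.828 and 0.303, limma), and no direction is given for the gene.

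TNFAIP3 encodes A20, a ubiquitin-editing enzyme that shuts down signalling to the IkB kinases, and both of its probe sets rose. On 202643_s_at the arrays read 53.1, 54.9 and 50.6 at baseline and 208, 287 and 227 after dinaciclib. The baseline arrays lay within a few units of each other, and every treated array was far above them. The mean rose from 5.75 ± 0.06 to 7.90 ± 0.24 on the log2 scale (SD, n = 3 per group), a 4.45-fold rise, or 2.15 in log2 units (SE 0.20, 95% interval 1.66 to 2.64) (adjusted p = 0.00360, limma). This rise passed under every alternative in which the probe set was tested, the numbered arrays alone included (2.26, limma adjusted p = 0.0367).

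The brighter TNFAIP3 probe set, 202644_s_at, read 121, 141 and 97.1 at baseline and 218, 450 and 415 after dinaciclib. The groups were again apart, with dinaciclib F the lowest of the treated arrays, as it was for NFKB1. The rise was 2.90-fold, or 1.53 in log2 units (SE 0.33) (adjusted p = 0.0269, limma). With 1 array fewer it lay between 1.34 and 1.86 and passed only without dinaciclib F, with adjusted p of 0.0653 to 0.0916 without any other array.

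TRAF1, an adaptor of tumour necrosis factor receptors that lacks the ring domain of its relatives, was read by 205599_at at 28.4, 44.0 and 25.5 at baseline and at 27.7, 21.5 and 16.8 after dinaciclib. The groups overlapped through dinaciclib F. The log2 change was -0.54 with a 95% interval of -1.25 to 0.18 and did not pass (adjusted p = 0.287, limma), and it was -0.09 under median centring.

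**Figure D2:**
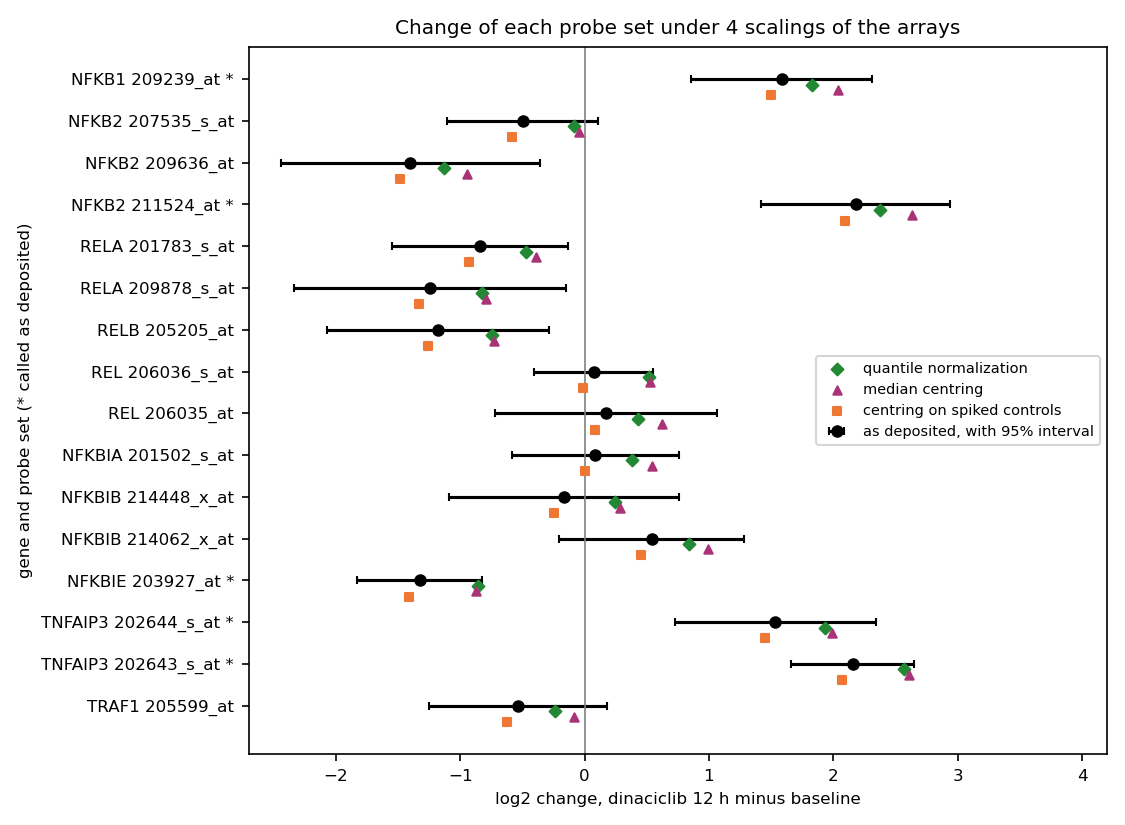
The log2 change, dinaciclib at 12 h minus baseline, is shown for each of the 16 probe sets, with black points and 95% intervals for the values as deposited and coloured marks for 3 other scalings of the arrays. NFKB1, TNFAIP3 and NFKB2 211524_at stay above 0 and NFKBIE below 0 under all 4, while REL 206036_s_at and NFKBIB 214448_x_at lie on both sides.

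Since a common scaling of an array cancels in a difference between bright probe sets on that array, the members were also compared within arrays. Relative to the baseline mean, the NFKBIA minus RELA difference was -0.08, 0.23 and -0.15 in baseline E, 4 and 5 and 0.58, 0.87 and 1.35 in dinaciclib F, 4 and 5. The groups did not overlap, and the inhibitor's transcript gained 0.93 log2 units on that of the subunit it binds. The exact two-sided permutation test gave p = 0.1, the smallest p that 3 arrays against 3 allow, so this design cannot reach 0.05. The same difference of NFKB1 minus RELA grew by 2.43 log2 units and that of NFKB1 minus NFKB2 by 2.08, in treated arrays at 1.60, 2.59 and 3.09 and at 1.56, 2.47 and 2.22. Both NFKB1 pairs were chosen after the rise of NFKB1 was seen, so their values are a description of that rise on another scale, with no test. None of the 3 differences says which gene of a pair moved.

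**Figure D3:**
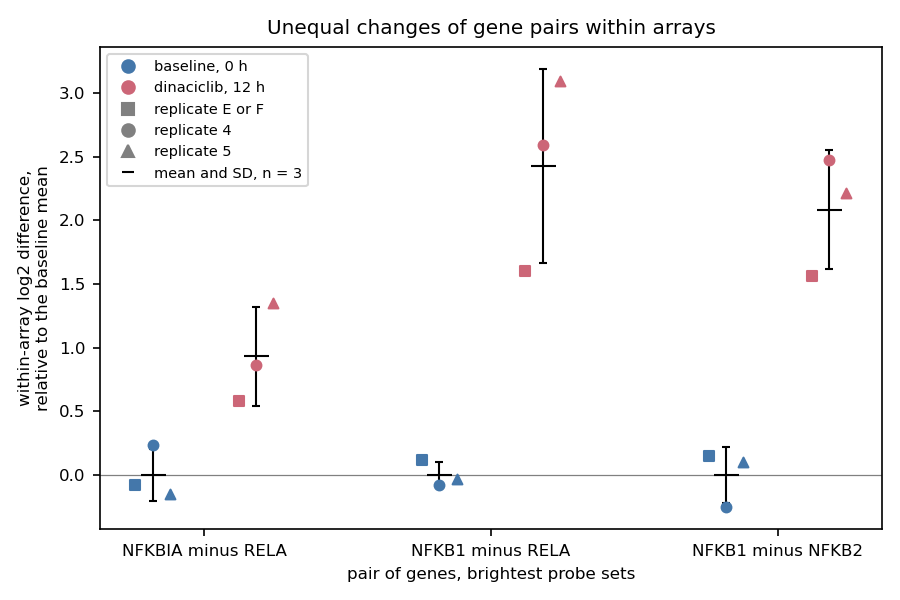
Points give the within-array log2 difference between the brightest probe sets of 3 gene pairs, set to 0 at the baseline mean, in blue for baseline and red for dinaciclib arrays, with bars for the mean and SD of 3 arrays. In each pair all 3 treated arrays lie above all 3 baseline arrays.

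By pattern over the 6 arrays, and with no test, the genes most like NFKBIA among 6746 genes of at least median brightness were POTEKP (Pearson r = 0.995), LHFPL6 (0.980), NDUFB3 (0.978), ECHDC1 (0.977) and NDUFC1 (0.977). Their log2 changes lay between 0.04 and 0.12, and all 6 points of each share the brightness of the arrays. Values this high over 6 arrays can come from picking the largest of 6746, and shared regulation was not tested.

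The pathway around the members was read from 4 further lists, each gene on its brightest probe set, with 70 of 85 listed genes measured. Together 1 gene rose, 9 fell and 60 missed the threshold, beside 3.32% of all genes raised and 15.8% lowered. The median log2 change was -0.26, equal to that of all genes. The split of calls followed the scaling: quantile normalization gave 10 rises and 7 falls and median centring 15 rises and 3 falls. Without baseline 4 or without baseline 5, 2 pathway genes fell and PTGS2 no longer passed. Over all 22215 probe sets 1245 fell without baseline 4 and 1249 without baseline 5, against 2971 with no array left out.

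Receptors and adaptors had the lowest median of the 4 lists, -0.82, with 5 falls, 0 rises and 14 genes that did not pass among 19 measured (limma). At an unadjusted p under 0.05, 1 rose and 12 fell, where 6.85% of all genes rose and 26.8% fell by that rule. MALT1, a paracaspase that cleaves A20 and CYLD downstream of CARD proteins, read 361, 516 and 610 at baseline and 107, 89.2 and 92.2 after dinaciclib. It fell 5.01-fold, or -2.32 in log2 units (SE 0.25) (adjusted p = 0.00450, limma), and its other 2 probe sets fell too, by 1.48 and 1.68. TNFRSF1A, the main receptor for tumour necrosis factor, read 457, 483 and 518 at baseline and 153, 113 and 73.5 after dinaciclib, a 4.44-fold fall (log2 change -2.15, SE 0.30; limma, adjusted p = 0.00724). The lymphotoxin receptor LTBR (-1.08), the lipopolysaccharide receptor TLR4 (-1.07) and the ubiquitin ligase TRAF6 (-1.03) also fell, and are named because they complete the count of 5. Their adjusted p was 0.0315, 0.0413 and 0.0212 (limma). None of LTBR, TLR4 and TRAF6 passed under median centring, or without baseline 4 or without baseline 5.

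Among kinases, 0 of 11 measured genes passed in either direction in limma as deposited, and 2 fell and 0 rose at an unadjusted p under 0.05, no larger a share than the 26.8% and 6.85% of all genes. The list's median was -0.41. The catalytic IkB kinase subunits CHUK and IKBKB had log2 changes of 0.33 and -0.51, and their scaffold IKBKG one of -0.41. All 3 were named as the core of the kinase complex, outside the rule for named genes. Further IKBKB probe sets, 209342_s_at and 211027_s_at, disagreed, at -0.84 and 0.41, and neither passed (limma). Of 14 measured ubiquitin enzymes, their partners and nuclear regulators, TANK, an adaptor that binds TRAF proteins and TBK1, fell, 0 rose and 13 did not pass (limma), with a median of -0.29. At an unadjusted p under 0.05, 2 rose and 4 fell, beside the same 6.85% and 26.8%. TANK read 350.5, 525 and 548 at baseline and 81.7, 166 and 137 after dinaciclib, or -1.91 in log2 units (SE 0.34) (adjusted p = 0.0142, limma). It missed the test without baseline 4 or 5 (adjusted p = 0.0578 and 0.0552), and its other probe sets disagreed, at -1.10 and 0.20, neither of which passed.

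Of 26 measured target genes, 1 rose, 3 fell and 22 missed the threshold, with a median of -0.04. Over all genes 3.32% rose and 15.8% fell. At an unadjusted p under 0.05, 4 target genes rose and 5 fell (limma), where 6.85% of all genes rose and 26.8% fell. PTGS2, the inducible cyclooxygenase, read 51.0, 54.7 and 48.6 at baseline and 127, 216 and 310 after dinaciclib. It rose 3.92-fold, or 1.97 in log2 units (SE 0.34) (adjusted p = 0.0136, limma), and missed the test without baseline 4 or 5 (adjusted p = 0.0503 and 0.0532). VCAM1, an adhesion molecule, and PTX3, a secreted pentraxin, fell, with log2 changes of -1.64 (SE 0.40) and -1.03 (SE 0.24) (adjusted p = 0.0366 and 0.0314, limma). VCAM1 missed the test in 5 and PTX3 in 6 of the fits with 1 array fewer. Both also missed it under median centring (adjusted p = 0.0528 and 0.0504), VCAM1 under quantile normalization (0.0565) and PTX3 with spiked controls (0.0648, limma), and within the numbered arrays neither passed (0.153 and 0.108). PLAU, the urokinase gene that completes the count of falls, changed by -0.96 (SE 0.22) (adjusted p = 0.0332, limma). It did not pass under median centring, or without baseline 4 or without baseline 5. The cytokine genes IL6 and CXCL8, named after their values were seen, read 220, 381 and 171 against 415, 912 and 763, and 541, 1174 and 561 against 631, 2809 and 1635, and neither passed (adjusted p = 0.0645 and 0.325, limma). The list's other cytokine genes moved in both directions. CXCL1, CXCL2 and CXCL3 had log2 changes of 0.01, -0.12 and 0.12, and CCL2, CCL5 and CCL20 of 0.52, -0.44 and 2.79. For IL1A, IL1B, TNF and LIF they were 0.40, -0.08, -0.26 and -0.73. None of these passed in limma, LIF with an adjusted p of 0.0639.

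**Figure D4:**
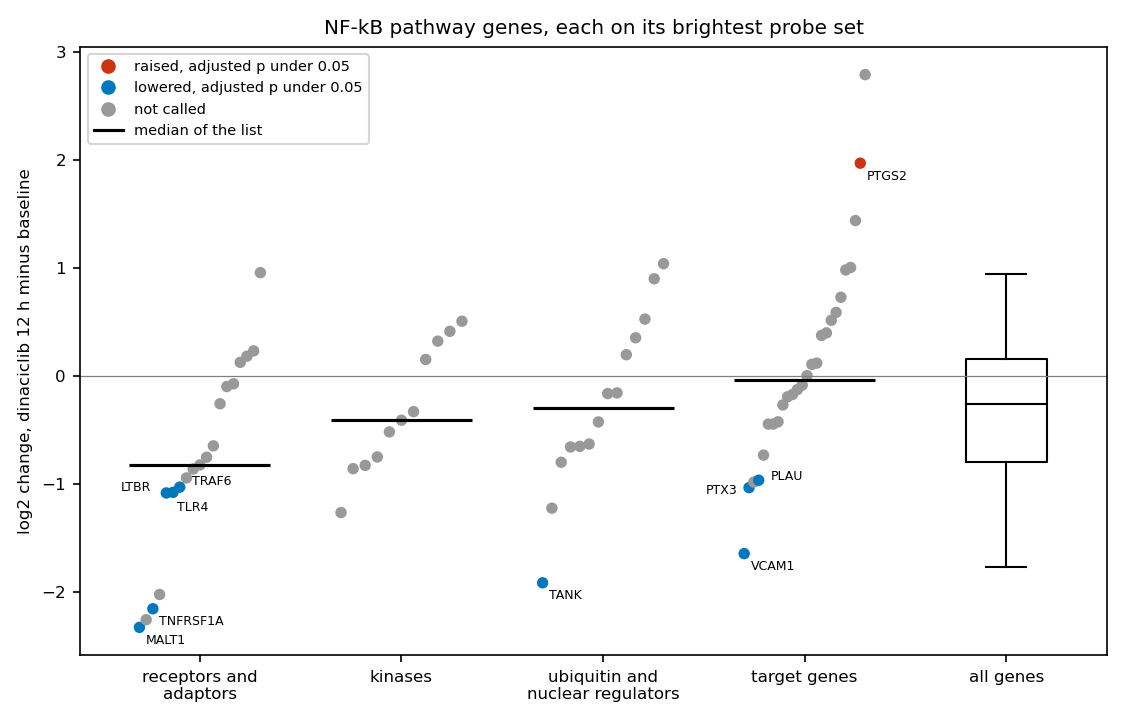
Each point is the log2 change, dinaciclib at 12 h minus baseline, of 1 pathway gene on its brightest probe set, in 4 lists, with red for raised, blue for lowered and grey for genes not called, and a line at each list's median. The box to the right gives the median, quartiles and 5th to 95th percentile of all genes, and the medians run from -0.82 for receptors and adaptors to -0.04 for target genes.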

How the data were processed

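Each of 6 biotin-labelled arrays has 1 deposited intensity per probe set, on a linear scale as the values show. The method by which the authors obtained these intensities (background correction, scaling) is not given in the sources used, and array medians differ. Of 22277 probe sets, 62 controls were left out. Symbols came from the platform annotation, checked by gene identifier against RefSeq (GRCh38.p14): 19064 probe sets had 1 gene, 1043 several and 2108 none named here.

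The log2(value + 1) of each probe set was tested, with no added scaling, by lmFit and eBayes of limma 3.58.1 (R 4.3.3), group as the only term, and Benjamini-Hochberg adjustment over 22215 probe sets. Folds on this scale are too small for dim probe sets. No array pair held identical values. Deviations from group means correlated at 0.08 for number 4, 0.08 for number 5 and 0.17 for E with F, and the main test took no arrays as pairs. Sample titles are numbered in couples, E before F and each 0 h number before its 12 h number. Low correlations cannot exclude pairing, and the replicate block was fitted as an alternative.

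Named genes were the 10 members, the 2 largest called rises and falls of each pathway list, and the 5 genes most correlated with NFKBIA. Other pathway genes (the IkB kinase subunits, the remaining called genes of short counts, the cytokine genes of the target list, CYLD and TRADD) were added after their values were seen. Members, lists and tests were chosen with earlier results of these data known. Alternatives were the scalings, a replicate block, a batch term, numbered arrays alone, dim probe sets (below percentile 40) left out, robust estimation with a variance trend, 1 value per gene, a pseudocount of 16 and each array left out. The steps were tested on simulated data. Promoter matches were searched on both strands in Python 3.11.15, and figures drawn with matplotlib 3.10.9. Precision is limited by the number of arrays.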

Additional observations from a re-analysis of the deposited data

How the results depend on the processing

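Against 4 raised and 1 lowered member probe sets and 1 raised and 9 lowered pathway genes, quantile normalization gave 10 pathway rises, and median centring 15 rises and 3 falls. Over all 22215 probe sets these 2 scalings raised 2130 and 3487 and lowered 2338 and 1938. Centring on spiked controls gave 5 pathway falls, where 520 of all probe sets rose and 2418 fell. The replicate block gave 2 member falls and 3 pathway rises, where 862 of all probe sets rose and 2625 fell. It ended the call of TNFAIP3 202644_s_at (adjusted p = 0.0543, limma), gave one for RELB (0.0354), and changed no other member call. The batch term gave 2 member falls, 5 pathway rises and 15 falls, where 1186 of all 22215 probe sets rose and 3514 fell. The numbered arrays alone gave 0 member falls (5 of 16 at an unadjusted p under 0.05, limma, beside 23.5% of all probe sets). They gave 2 rises and 5 falls in the pathway, where 449 of all probe sets rose and 1721 fell. Leaving out dim probe sets kept 13 member probe sets and 59 pathway genes, with 4 member falls, 6 pathway rises and 21 falls. Among the 13329 probe sets kept, 1267 rose and 3997 fell. The variance trend gave 4 member falls, 7 pathway rises and 17 falls, and a pseudocount of 16 gave 3, 6 and 19. Of all 22215 probe sets the trend raised 1291 and lowered 4030, and the pseudocount of 16 raised 1254 and lowered 4026. As deposited these counts were 857 and 2971. With 1 value per gene, the brightest probe set or the mean, 2 member genes rose, by construction fewer than probe sets, and 2 pathway genes rose. Of the 15114 values tested there, 538 rose and 2277 fell on the brightest probe set, and 523 and 2053 on the mean. With 1 array left out, member rises ranged from 2 to 4 and falls from 1 to 2. Pathway rises ranged from 0 to 2 and falls from 2 to 9. Over all 22215 probe sets 362 to 629 rose and 1245 to 2684 fell in these fits. The 0 pathway rises were without baseline 4 or 5. There 8 and 6 of 70 rose at an unadjusted p under 0.05 (limma), beside 6.84% and 5.81% of all genes.

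Signs turned for probe sets that did not pass. NFKBIB 214448_x_at (-0.16) had 0.24 after quantile normalization, 0.29 after median centring, 0.14 on the numbered arrays and 0.19 as the mean of its probe sets, and -0.39 to 0.24 with 1 array left out. NFKB2 had 0.094 as the mean of its probe sets. REL 206036_s_at had -0.012 with spiked controls, and REL 206035_at -0.13 to 0.49 with 1 array left out. NFKBIA had -0.054 on the numbered arrays and -0.10 to 0.34 with 1 array left out. The NFKBIA change relative to RELA kept its sign in each alternative run, at 0.72 to 1.13. The cause of these shifts was not tested. Probe sets near the floor, such as NFKB2 211524_at, have sizes that rest on the value added before the logarithm.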

Other observations

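CYLD, the deubiquitinase that removes the ubiquitin chains on which the IkB kinases assemble, was singled out after the values were seen because its 7 probe sets split. Probe sets 60084_at and 222142_at rose, with log2 changes of 1.32 (SE 0.24) and 1.30 (SE 0.32) (adjusted p = 0.0160 and 0.0382, limma). The brightest, 221903_s_at, had a change of 1.04 and did not pass (adjusted p = 0.0833 in limma). Probe sets 213295_at, 221905_at and 39582_at had changes of -0.75, -0.52 and -0.77, none of which passed, and 214272_at one of 0.05. Which forms of the transcript each probe set reads was not analysed here.

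CCL20, a chemokine gene among the targets, had the largest log2 change of the 70 pathway genes, 2.79 (SE 0.98), and missed the threshold (adjusted p = 0.109, limma). Its intensities were 23.2, 1.98 and 2.21 in baseline E, 4 and 5 and 15.1, 72.7 and 63.8 in dinaciclib F, 4 and 5. The change was 4.63 for number 4 and 4.34 for number 5 and -0.59 from E to F, so the arrays named with a letter went the other way. Baseline 4 and 5 read near the floor of the array, and the size of the change and its rank rest on the value added before the logarithm.

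TRADD, the adaptor of the TNFRSF1A receptor, fell on 1729_at, with a log2 change of -1.69 (SE 0.25; adjusted p = 0.00915, limma), while its brightest probe set had a change of -0.64 and the dim 213443_at one of 0.63, neither of which passed. It was singled out after the values were seen.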
